A study of Mus musculus with 4 samples.

Results

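Gas5 and 8 Snhg genes, noncoding hosts of small nucleolar RNAs (snoRNAs), were followed in RPP631 cells exposed to a CDK7 inhibitor. RPP631 is a line of mouse lung cancer cells whose labels give small cell lung cancer (SCLC) as the disease. The members were Gas5, Snhg1, Snhg3, Snhg5, Snhg6, Snhg8, Snhg12, Snhg15 and Snhg20, taken by symbol from the deposited gene annotation and matched by Ensembl identifier to the count table. They are 9 of 54232 genes in that table, and all 9 passed the filter on low counts, through which 16749 genes went on to the test.

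The study sequenced bulk RNA from cells that had received DMSO (the vehicle) or 100 nM YKL for 48 h. YKL is the compound that the series title, read with the labels, gives as the inhibitor of CDK7, a kinase of transcription initiation and of the cell cycle. Each group held 2 libraries of the same line, and all libraries came from total RNA. The labels name no genotype for RPP631 and do not say whether the replicates came from different cultures. The p-values therefore reflect the spread among these 4 libraries, which may be technical. The libraries held 29817387 to 34189709 assigned counts, of which the 9 hosts took between 0.00689% and 0.0167%. The mitochondrial share of counts ran from 1.01% to 1.14% for DMSO and from 1.25% to 1.78% for YKL, highest in YKL replicate 2. The neuroendocrine genes Insm1, Chga, Syp and Calca stood between 178 and 783 CPM (counts per 1000000, scaled as described with the results) in every library. Cd3e had no count in any library, and Ptprc, of white blood cells, rested on 0 and 2 counts in the DMSO libraries and on 25 and 23 in the YKL libraries, while Pdgfra, listed as a fibroblast marker, reached 11.5 to 43.1 CPM; the part of either gene's cells in the results was not tested.

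A snoRNA host gene carries snoRNA sequences in its introns. After splicing, the introns are trimmed to snoRNAs, which guide the methylation (box C/D) or pseudouridylation (box H/ACA) of ribosomal RNA, whereas the spliced exons of these hosts are not known to encode conserved proteins. Transcripts of several hosts, Gas5 first among them, begin with a run of pyrimidines as ribosomal protein mRNAs do. This 5′ terminal oligopyrimidine (TOP) tract ties translation to mTOR signalling, and ribosome-bound Gas5 RNA is known to be degraded by nonsense-mediated decay.

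The start regions of the hosts are shown because the rule that groups them refers to promoters like those of ribosomal protein genes. The RefSeq promoter table (GRCm38.p6) held 9 annotated starts of 8 members, with 2 for Gas5. Each sequence holds the 40 bases before the annotated start and the 25 bases that follow, so base 1 is the start itself. Capitals mark a C followed by at least 4 C or T letters on the sense strand, beginning within 10 bases of the start.
Gas5, start at 161034601 (chr1:161034561-161034625, plus strand): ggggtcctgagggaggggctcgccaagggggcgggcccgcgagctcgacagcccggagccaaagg
Gas5, start at 161035166 (chr1:161035126-161035190, plus strand): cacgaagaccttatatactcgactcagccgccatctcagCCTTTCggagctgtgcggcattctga
Snhg5 (chr9:88522873-88522937, minus strand): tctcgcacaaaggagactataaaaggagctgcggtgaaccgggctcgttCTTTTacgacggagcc
Snhg12 (chr4:132308638-132308702, plus strand): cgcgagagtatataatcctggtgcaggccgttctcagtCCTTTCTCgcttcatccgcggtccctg
Snhg1 (chr19:8723447-8723511, plus strand): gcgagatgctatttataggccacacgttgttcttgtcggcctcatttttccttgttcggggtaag
Snhg3 (chr4:132353662-132353726, minus strand): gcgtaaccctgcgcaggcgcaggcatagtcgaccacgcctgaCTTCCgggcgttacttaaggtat
Snhg8 (chr3:123508312-123508376, minus strand): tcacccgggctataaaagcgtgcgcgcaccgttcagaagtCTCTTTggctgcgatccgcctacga
Snhg15 (chr11:6528736-6528800, minus strand): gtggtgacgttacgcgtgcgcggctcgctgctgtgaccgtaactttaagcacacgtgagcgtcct
Snhg20 (chr11:117076743-117076807, plus strand): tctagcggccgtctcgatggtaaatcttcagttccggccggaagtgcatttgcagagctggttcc

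The tract was found at 5 of the 9 starts, against 29% of 32851 promoters in the table and 50% of 68 promoters of 58 ribosomal protein genes. It was longest in Snhg12, with 8 letters, and had 6 in Snhg8 and at the downstream start of Gas5. TATAAA, the core of the TATA box, was found on either strand within a window of 250 bases before the start and 50 after at 4 of the 9 starts, against 13.6% of all promoters and 8.82% of those of ribosomal protein genes. It began 23 bases before the start of Snhg5 and 30 before that of Snhg8, and past the start in Snhg3. In Snhg1 the match, 29 bases before the start, lies on the other strand. CCGGAA, a core of ETS factor motifs, was at 3 of the 9 starts, against 14.9% of all promoters and 48.5% of ribosomal protein promoters. GGGCGG, a GC box, was at 7, against 35.7% and 61.8%, and CACGTG, an E-box, at 1, against 7.15% and 11.8%. In Snhg3 the tract begins at base 3 and the CCGGAA match, which lies on the other strand, at base 4, so that they share letters. The tract of Snhg5 begins at base 10, the farthest from its start. These are matches of letters and no evidence of binding.

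The question of the comparison was how transcript levels respond to the inhibitor. Gas5 fell under YKL to 30.9% of its DMSO level, and it was the only one of the 9 hosts to pass the test. Snhg5 had the next largest difference, at 42.6% of the DMSO level, but missed the threshold. The libraries of the groups did not overlap, with YKL lower, in 6 of the 9 hosts, and overlapped in Snhg8, Snhg15 and Snhg20. Levels are counts scaled by the trimmed mean of M-values (TMM) to CPM, and genes with a Benjamini-Hochberg adjusted p under 0.05 in the quasi-likelihood test of edgeR count as called. Such levels are relative to the other genes of a library, so a change shared by most genes would not show. Over all genes tested 1.44% were called lower, 2.1% higher and 3.54% in either direction. Both YKL libraries lay below both DMSO libraries in 25.3% of all genes tested. The median log2 fold change of the 9 hosts was -0.66, beside -1e-04 over all genes tested, with 6 hosts below 0. The hosts' median was -0.32 without YKL replicate 2 and -0.44 without DMSO replicate 2. Among the 863 tested genes of biotype lincRNA or processed_transcript, the annotation classes of the members, the median was 0.11 and 0.579% were called lower.

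**Figure D1:**
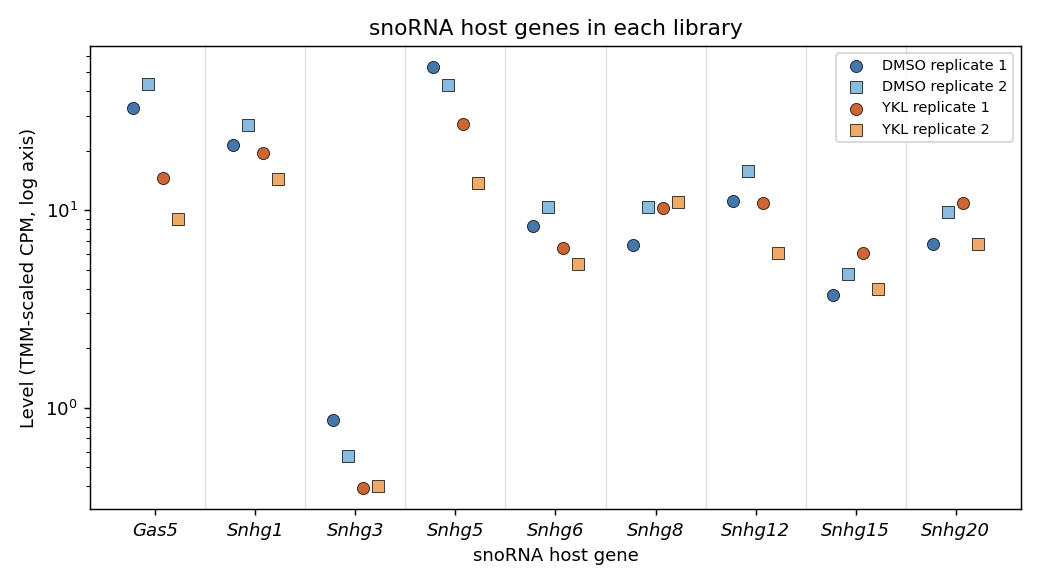
Level of each host gene in each library, in TMM-scaled CPM on a log axis, with 1 point per library and blue for DMSO and orange for YKL. Both YKL points of Gas5 (14.5 and 9.03 CPM) lie below both DMSO points (32.9 and 43.2 CPM), whereas the points of Snhg8, Snhg15 and Snhg20 are interleaved.

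Gas5, first known as a transcript that accumulates in growth-arrested cells, hosts box C/D snoRNAs. It lies on chromosome 1, from 161034422 to 161038539 on the plus strand (ENSMUSG00000053332, mm10). It had 32.9 and 43.2 CPM in the DMSO libraries and 14.5 and 9.03 CPM in the YKL libraries, from 1101 and 1362 counts and from 444 and 291 counts. Every YKL value was thus under the lower DMSO value. The means were 38.1 ± 7.29 CPM in DMSO and 11.8 ± 3.86 CPM in YKL (SD, n = 2 each), and the log2 fold change was -1.69 ± 0.29 (standard error), with an adjusted p = 0.0217 by edgeR. By its p it ranked 142 among the 16749 genes tested. The call ended without YKL replicate 2 (log2 fold change -1.40, adjusted p = 0.105), the library with the lowest Gas5 level, and with scaling by total count alone (-1.68, adjusted p = 0.0551).

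Snhg5, the most abundant host per length in DMSO, carries the snoRNAs Snord50a and Snord50b and lies on chromosome 9, from 88521050 to 88522929 on the minus strand (ENSMUSG00000097195). Its level was 52.9 and 43.1 CPM in DMSO and 27.2 and 13.7 CPM in YKL. The groups did not overlap, but the YKL libraries differed from each other by 0.99 on the log2 scale. The log2 fold change was -1.23 ± 0.32, with an adjusted p = 0.0839 by edgeR. It was -1.81 without YKL replicate 1 and -0.82 without YKL replicate 2. Without DMSO replicate 1 it was -1.07, and without DMSO replicate 2 it was -1.41. With the replicate number as a block, edgeR called Snhg5 at -1.30 (adjusted p = 0.00197). Snhg5 was also called by DESeq2 at -1.25 (adjusted p = 0.00523) and by edgeR without the filter at -1.26 (adjusted p = 2.41e-05). In that order, these settings called 1387, 1588 and 1740 of all genes, against 593 in the main test.

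Snhg1, the host of a cluster of box C/D snoRNAs on chromosome 19 (8723475 to 8726443, plus strand, ENSMUSG00000108414), had 21.2 and 26.9 CPM in DMSO and 19.5 and 14.3 CPM in YKL. YKL replicate 1 came close to DMSO replicate 1, and the log2 fold change of -0.51 ± 0.26 was not called (adjusted p = 0.309). Snhg12, a host of both box types on chromosome 4 (132308623 to 132311024, plus strand, ENSMUSG00000086290), had 11.1 and 15.8 CPM in DMSO and 10.8 and 6.05 CPM in YKL. Here too the first replicates of the groups nearly met. The log2 fold change was -0.68 ± 0.37 (adjusted p = 0.328), and it ran from -1.15 without YKL replicate 1 to -0.32 without YKL replicate 2.

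Snhg6, the host of Snord87 on chromosome 1 (9941959 to 9944118, minus strand, ENSMUSG00000098234), had 8.31 and 10.4 CPM in DMSO and 6.46 and 5.34 CPM in YKL. The groups were apart, with a log2 fold change of -0.66 ± 0.35 that was not called (adjusted p = 0.311). Snhg3 on chromosome 4 (132348014 to 132353686, minus strand, ENSMUSG00000085241), the host of Snora73a and Snora73b, was near the lower end of what could be tested. Its levels rest on 29 and 18 counts for DMSO and on 12 and 13 for YKL, or 0.867 and 0.571 CPM against 0.392 and 0.404 CPM. Its log2 fold change of -0.85 ± 0.60 had the largest standard error of the 9 hosts and was not called (adjusted p = 0.458). Exons of Snhg3 share 135 bases with Rcc1 on the same strand and 705 with Gm17300 on the other, so its count is uncertain where the genes overlap.

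In the other 3 hosts the libraries of the groups overlapped and the fitted difference was small and positive. Snhg8, the host of Snora24 on chromosome 3 (123507552 to 123508404, minus strand, ENSMUSG00000104960), had 6.67 and 10.3 CPM in DMSO and 10.2 and 11.02 CPM in YKL. DMSO replicate 1 was the low library, and the log2 fold change of 0.33 ± 0.34 (adjusted p = 0.642) went to 0.047 without it. Snhg15, the host of Snora9 on chromosome 11 (6525591 to 6528760, minus strand, ENSMUSG00000085156), had 3.71 and 4.76 CPM in DMSO and 6.04 and 3.97 CPM in YKL, with a log2 fold change of 0.24 ± 0.41 (adjusted p = 0.795). Snhg20 on chromosome 11 (117076790 to 117078955, plus strand, ENSMUSG00000086859) had 6.73 and 9.80 CPM in DMSO and 10.9 and 6.74 CPM in YKL, a log2 fold change of 0.091 ± 0.38 (adjusted p = 0.928). In Snhg15 and Snhg20 YKL replicate 1 was the highest of the 4 libraries. Without that library their values turned to -0.087 and -0.29, and that of Snhg20 turned to -0.15 without DMSO replicate 1, so no direction holds for either gene. A p that misses the threshold does not show that a host did not respond. Whether Gas5 responded more than Snhg8 was not tested.

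**Figure D2:**
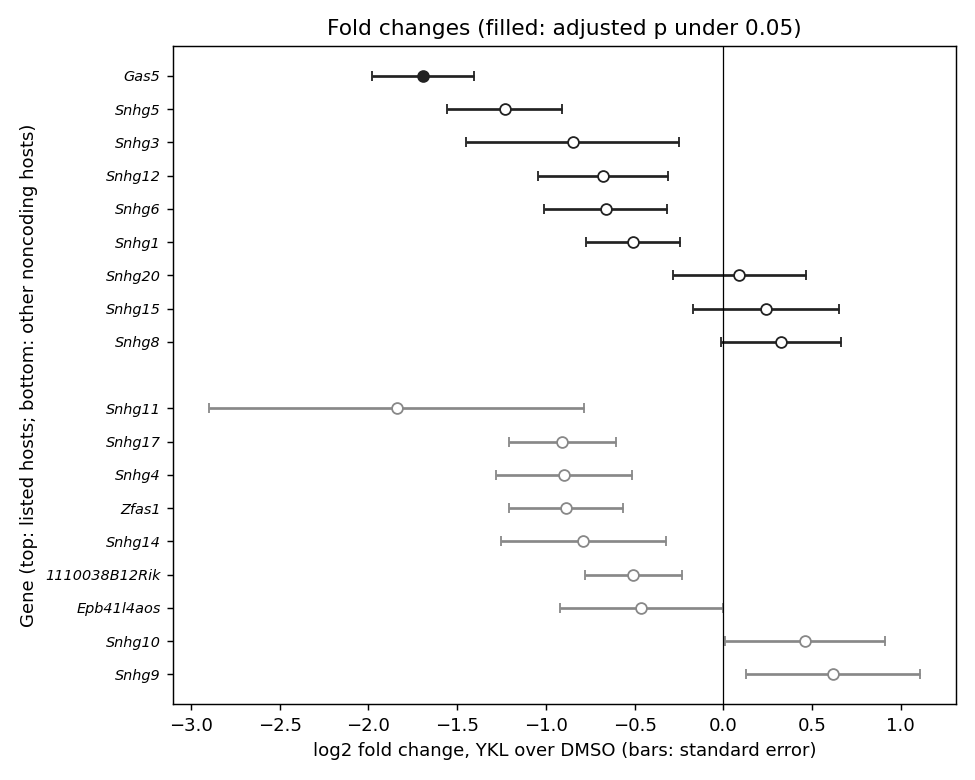
log2 fold change of YKL over DMSO with its standard error for the 9 listed hosts (black, top) and 9 other noncoding hosts (grey, bottom), where a filled point has an adjusted p under 0.05. Only Gas5 is filled, at -1.69, and the listed hosts run from there to 0.33 in Snhg8.

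Per kilobase of exon the order of the hosts differed between the groups. In DMSO, Snhg5 stood first at 27.7 ± 4.04 CPM per kb, and its libraries did not overlap those of Gas5, the next in order at 10.1 ± 1.94 CPM per kb. Snhg8 (9.95), Snhg6 (8.15) and Snhg1 (8.11 CPM per kb) followed, and each of these 3 overlapped the host above it in the order. Snhg12 at 5.61 ± 1.39 CPM per kb was apart from both its neighbours in the order, Snhg20 (3.82) and Snhg15 (3.11) overlapped each other, and Snhg3 was last at 0.729 CPM per kb. In YKL, Snhg8 (12.5 ± 0.640) and Snhg5 (11.8 ± 5.52 CPM per kb) led and overlapped. Below them Snhg1, Snhg6, Snhg20, Snhg15, Snhg12 and Gas5, from 5.70 to 3.13 CPM per kb, each overlapped the next. Snhg3 was last again, apart from Gas5. Gas5 went from rank 2 to rank 8, but its libraries overlapped those of Snhg8 below it in DMSO and those of Snhg12 above it in YKL.

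**Figure D3:**
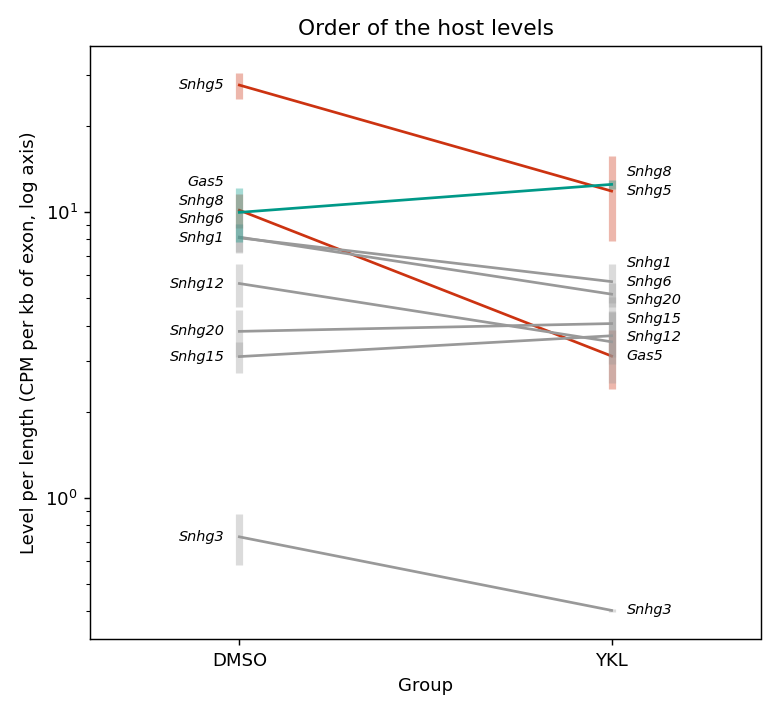
Mean level per kilobase of exon of each host in DMSO and YKL on a log axis, with shaded bars from the lower to the higher library and lines joining the means of each gene (names are spaced to be legible). Gas5 goes from 10.1 to 3.13 CPM per kb and Snhg5 from 27.7 to 11.8, both in red, while Snhg8, in green, stands at 9.95 and 12.5.

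These lengths rest on gene models that hold intron sequence, which bears on what was counted. The annotated exons of Snhg1, Snhg8, Snhg12 and Snhg20 merge into 1 block that covers 100% of the gene, and those of Gas5 and Snhg5 cover 91.3% and 92.0%. In GENCODE M21, 20 of 25 Gas5 transcripts, 14 of 18 of Snhg1 and 3 of 6 of Snhg5 are retained-intron models. In contrast, 17.4% of Snhg3, 42.9% of Snhg15 and 53.1% of Snhg6 is exonic. In hosts of the first kind, reads from unspliced RNA count as gene reads, so spliced and unspliced RNA cannot be told apart. The log2 fold changes of the hosts with nearly full coverage ran from -1.69 (Gas5) to 0.33 ± 0.34 (Snhg8). Those of Snhg3, Snhg6 and Snhg15 ran from -0.85 to 0.24. Whether the coverage bears on the fold changes was not tested.

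The snoRNAs themselves had almost no counts. The 9 hosts hold 30 entries annotated as snoRNA genes on their own strand, 10 of them in Gas5 and 8 in Snhg1. Snhg20 has none of this biotype but holds the scaRNA gene Gm26083. The entries are not all distinct snoRNAs. Snord80 in Gas5 and Snora16a in Snhg12 are each entered more than once at nearly the same place, and an entry in Gas5 is named Mir5117. Of the 30, 27 lie wholly inside annotated exons of the host, and each of these 27 had 0 counts in every library. Of the other 3, Snora73a and Snora73b in Snhg3 also had none, and Snord87, in an intron of Snhg6, was listed with 4 and 6 counts for DMSO and none for either YKL library. Over the whole table, 238 of 1507 snoRNA genes had any count, and they took 0.00187% to 0.00288% of a library. A change in the mature snoRNAs of these hosts was therefore not measurable. How the counting treated reads shared by a host exon and a snoRNA gene is not given in the sources used here.

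Genes that start next to a host on the other strand, or share exonic bases with one, are described here. Whether the response of such a gene differed from that of its host was not tested. Zbtb37, which encodes a zinc finger protein, has its annotated 5′ end at position 161034849, 427 bases inside the outermost Gas5 start and upstream of the Gas5 start at 161035166. It shares no exonic base with Gas5. Zbtb37 had 28.2 and 33.4 CPM in DMSO and 17.4 and 14.1 CPM in YKL. The groups did not overlap, and the log2 fold change of -0.97 ± 0.24 just missed the threshold (adjusted p = 0.0587). Slc3a2, the heavy chain of several amino acid transporters, starts 106 bases from Snhg1 on the other strand. It had 203 and 150 CPM in DMSO and 148 and 176 CPM in YKL, with a log2 fold change of -0.12 ± 0.21 (adjusted p = 0.793), and its groups overlapped. Rcc1, which shares exonic bases with Snhg3 on the same strand and encodes the nucleotide exchange factor of Ran, had 169 ± 36.4 and 159 ± 2.13 CPM (log2 fold change -0.083, adjusted p = 0.862). Mcmdc2, which shares 127 exonic bases with Snhg6 on the other strand, was at 0.124 to 0.448 CPM, with a log2 fold change of -0.72 ± 0.73 (adjusted p = 0.630).

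A further 14 noncoding hosts were listed by name, of which 12 were found in the table and 9 were tested. None was called by edgeR, and DESeq2 called Snhg17 alone. By edgeR, 3 had an unadjusted p under 0.05 (Snhg4, Snhg17 and Zfas1, named after their values were seen). Over all genes tested, 3551 of 16749 had such a p. The log2 fold changes of the 9 tested noncoding hosts had a median of -0.79, and 7 of 9 lay below 0. Without DMSO replicate 2, when 10 were tested, the median was -0.28. Snhg17 had 13.5 and 14.6 CPM in DMSO and 8.13 and 6.89 CPM in YKL (log2 fold change -0.91 ± 0.30, adjusted p = 0.124), and Zfas1, the host of Snord12 family members, had 14.0 and 16.6 CPM and 9.99 and 6.58 CPM (-0.89 ± 0.32, adjusted p = 0.153). In both genes the groups did not overlap. Snhg11, which the deposited annotation classes as protein_coding, had the widest spread, with 21.5 and 63.5 CPM in DMSO and 19.2 and 4.53 CPM in YKL (-1.84 ± 1.06, adjusted p = 0.451). 1110038B12Rik had a log2 fold change of -0.51 ± 0.27, whereas Snhg9 and Snhg10, named after their values were seen, were at 0.62 ± 0.49 and 0.46 ± 0.45, none of them called.

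Ribosomal protein genes encode the structural proteins of the ribosome and are the class to which the hosts are likened. Of 79 tested, 24 were called lower and none higher (30.4%, against 1.44% of all genes tested called lower), with a median log2 fold change of -0.68. Among these, 30 hold a snoRNA gene in their span, and 11 of those were called, with a median of -0.79. Of the 49 that hold none, 13 were called, with a median of -0.63. Rpl17 went from 59.1 and 66.5 to 23.4 and 22.6 CPM (log2 fold change -1.45 ± 0.20, adjusted p = 0.0105). The median of the 79 was -0.86 without YKL replicate 2 and -0.58 without YKL replicate 1. It was -0.76 without DMSO replicate 1 and -0.70 without DMSO replicate 2. The count of called ribosomal protein genes depended on the setting. It was 5 without the robust prior and 6 with total count scaling, where 236 and 169 of all genes were called. Whether hosts and ribosomal protein genes differ in response was not tested.

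Within the YKL pair the listed hosts and the ribosomal protein genes were ordered differently. YKL replicate 2 was below YKL replicate 1 in 7 of the 9 listed hosts, with a median log2 ratio of replicate 1 over replicate 2 of 0.55. In the other noncoding hosts that median was -0.015, and replicate 1 was the higher library in 4 of 9. In the ribosomal protein genes that median was -0.30, and replicate 1 was the higher library in 4 of 79. Over all genes tested it was -0.0031. The DMSO pair differed as well. There the median was -0.34 in the listed hosts, with replicate 1 higher in 2 of 9, and -0.16 in the ribosomal protein genes. With 1 library on each side this is a description. Of the 4 libraries, YKL replicate 2 held the lowest level of 5 of the 9 hosts, and YKL replicate 1 that of 72 of the 79 ribosomal protein genes. YKL replicate 2 was also the library with the highest mitochondrial share, and its part in the result was not tested.

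**Figure D4:**
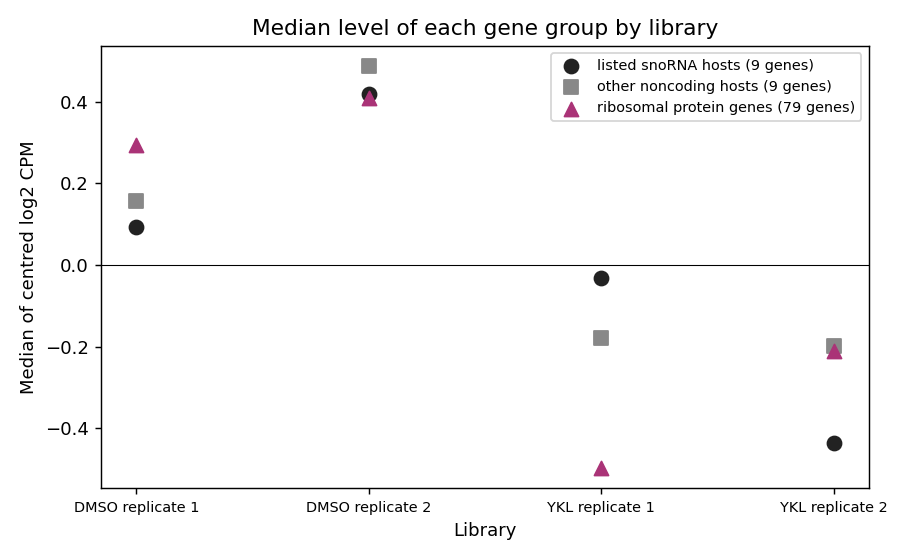
Median over the genes of a group of log2 CPM centred on each gene's mean over the 4 libraries, with 1 point per library for the listed hosts (black), the other noncoding hosts (grey) and the ribosomal protein genes (purple). The listed hosts are lowest in YKL replicate 2 (-0.44) and near 0 in YKL replicate 1 (-0.032), whereas the ribosomal protein genes are lowest in YKL replicate 1 (-0.50). The other noncoding hosts stand at -0.18 in YKL replicate 1 and -0.20 in YKL replicate 2.

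Genes for proteins of the snoRNA particles and for factors of their assembly were followed as well. Of 19 genes for snoRNA particle proteins and their assembly factors, none passed edgeR's test, and DESeq2 called Naf1 alone. By edgeR, 4 had an unadjusted p under 0.05, as did 3551 of all 16749 genes tested. The shares are alike, so the 4 are single genes and not a pattern of the list. The list's median was -0.12 on the log2 scale, with 0.0058 without DMSO replicate 1, -0.34 without DMSO replicate 2 and -0.18 without YKL replicate 2. Nop58, a core protein of box C/D particles, had 146 ± 46.3 and 136 ± 9.74 CPM (log2 fold change -0.10 ± 0.23, adjusted p = 0.858), and Nolc1, a nucleolar chaperone of these particles, 124 ± 25.4 and 138 ± 6.74 CPM (0.15 ± 0.20, adjusted p = 0.728). The 4 genes, named after their values were seen, pointed both ways. Naf1, an assembly factor of box H/ACA particles, was at -0.87 (adjusted p = 0.0547), Pih1d1 at -0.60, Ruvbl2 at -0.47 and Nop10, a core box H/ACA protein, at 0.65.

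Of 18 factors of nonsense-mediated decay, 1 was called lower and none higher, where 1.44% and 2.1% of all genes tested were. Both YKL libraries lay below both DMSO libraries in 9 of the 18 and above them in 2, against 25.3% and 27% of all genes tested. The median log2 fold change was -0.22, with -0.09 without DMSO replicate 1 and -0.34 without DMSO replicate 2. The gene called was Pnrc2, a decay adaptor, which went from 193 and 144 CPM to 92.4 and 88.9 CPM (-0.90 ± 0.20, adjusted p = 0.0418). Its groups did not overlap, but no gene of the list was called without DMSO replicate 1, without YKL replicate 1 or without YKL replicate 2. Among 15 tested regulators of TOP mRNAs and of the mTOR pathway, 1 was called lower and none higher, beside the same 1.44% and 2.1% of all genes. The groups did not overlap with YKL lower in 7 of them and with YKL higher in 1. The median was -0.26, with -0.11 without DMSO replicate 1 and -0.13 without YKL replicate 1. The gene called was Eif4ebp1, which encodes a repressor of cap-dependent translation that mTOR inactivates. It went from 78.1 and 80.2 CPM to 17.2 and 18.5 CPM (-2.15 ± 0.19, adjusted p = 0.00326). Larp1, which binds TOP mRNAs, had 431 ± 46.4 and 319 ± 5.91 CPM (-0.44 ± 0.18, adjusted p = 0.205) and was named after its value was seen.

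The protein-coding genes whose levels over the 4 libraries were nearest to the hosts' mean profile were Smg1, Chd2, Agtpbp1, Grik5 and Slf2. Nearness was the Euclidean distance between log2 CPM centred on each gene's mean, for genes that averaged at least 50 CPM. The distances ran from 0.0746 for Smg1, the kinase that phosphorylates Upf1, to 0.151 for Slf2. None of the 5 was called, with log2 fold changes from -0.55 (Chd2) to -0.43 (Slf2). With 4 libraries, such a profile has few ways to vary.

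The authors' deposited table of their DESeq2 comparison holds all 9 hosts, with the same sign as here in each. There, 4 hosts in the authors' deposited table had an adjusted p under 0.05 and were lower in YKL, where 13.9% of its 15936 genes were lower at that threshold. These were Gas5 (log2 fold change -1.52, adjusted p = 2.78e-11), Snhg5 (-1.17, adjusted p = 3.44e-08), Snhg6 (-0.60, adjusted p = 0.0267) and Snhg12 (-0.60, adjusted p = 0.0368) in the authors' deposited table. DESeq2 run on the deposited counts called Gas5 and Snhg5 alone (it gave no adjusted p for Snhg3), where 5.27% of genes were called lower. The standard errors also differed, at 0.21 for Gas5 and 0.19 for Snhg5 in the authors' comparison, beside 0.31 and 0.34 in this run. Whether both fits rest on the same libraries and settings was not tested.

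**Figure D5:**
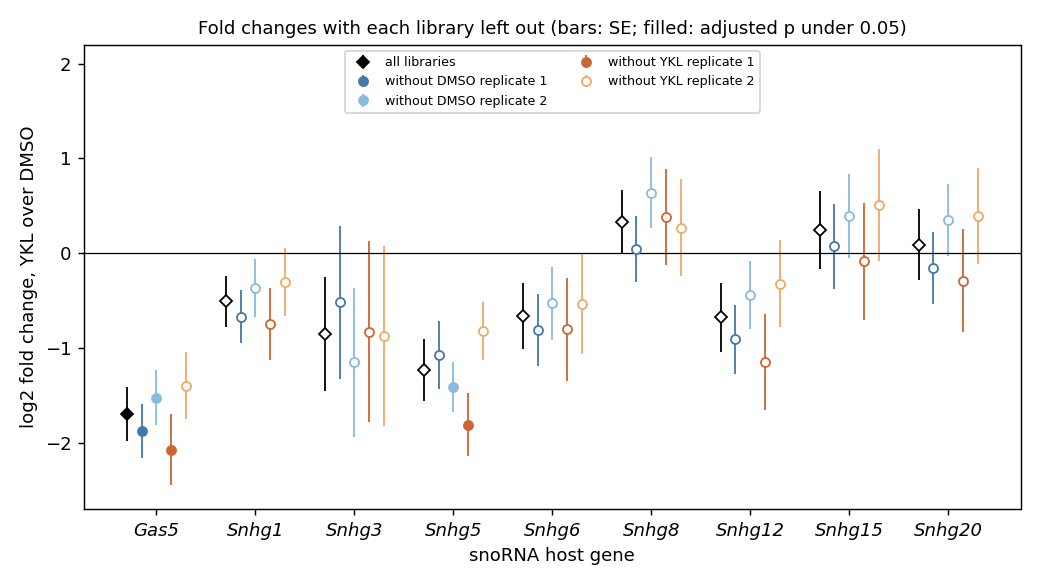
log2 fold change and standard error of each host with all libraries (diamonds) and with each library left out in turn (circles), where a filled symbol has an adjusted p under 0.05. Gas5 runs from -2.07 without YKL replicate 1 to -1.40 without YKL replicate 2, and the values of Snhg15 and Snhg20 fall on both sides of 0.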

How the data were processed

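Per the submitters' processing notes, reads were handled with STAR 2.5.2b, featureCounts and DESeq2 on mm10. The authors deposited raw counts per gene and library with summed exon lengths in bases, and gene biotypes as text under the file's other columns. The strand setting of the counting is not given in the sources used here. The authors also deposited their DESeq2 comparison, with a mean normalized signal, log2 fold changes with errors, a test score, and p-values. Per the file headers, these are YKL over DMSO.

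Counts were tested with edgeR 4.0.16 in R 4.3.3 (filterByExpr with a minimum count of 10 and total of 15, TMM scaling, quasi-likelihood test with a robust prior, 2 residual degrees of freedom), with Benjamini-Hochberg adjustment over 16749 genes. A standard error is the absolute log2 fold change over the square root of F. The common coefficient of variation estimated by edgeR came to 25%, and the labels do not tell whether this spread is biological or technical. The test was also run on simulated counts in which every gene had the same coefficient of variation. That run cannot show how reliable the calls are in these libraries. Level profiles used a pseudocount of 0.5 CPM. The members and lists were chosen with earlier results of these data known. Named genes were the members, tested divergent neighbours, the 5 nearest profiles, and per list the 2 called genes with the smallest p in each direction or else the 2 most abundant; genes that share exonic bases with a member are also named, and others are marked as chosen after their values were seen. Not every gene this rule names is reported here. Promoter sequences are from RefSeq (GRCm38.p6). Other settings tried were scaling by upper quartile, by RLE or by total count, leaving out the filter, requiring 5 CPM in 2 libraries, blocking on replicate number, no robust prior, DESeq2 1.42.0 and leaving out each library. Figures were drawn with matplotlib 3.10.9.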

Additional observations from a re-analysis of the deposited data

How the results depend on the processing

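Of 202 comparisons of 17 results with another setting, 137 stayed the same. For a gene this means the same direction and side of the threshold, and for a count of called genes a change within 1.5 times. Of the rest, 2 lost a call, 5 gained one, 3 changed sign and 55 counts moved by over 1.5 times or to or from 0. The cause was not tested. All 593 genes called became 1588 with DESeq2, 1740 without the filter, 236 without the robust prior, 169 with total count scaling, 331 with upper quartile scaling and 71 to 2453 with 1 library left out (71 without YKL replicate 2). The 1 listed host called became 2 with DESeq2, 2 without the filter, 0 with total count scaling and 0 to 2 with 1 library left out. Other noncoding hosts went from 0 to 1 with DESeq2 and to 0 to 1 with 1 library left out. Coding hosts went from 20 to 46 with DESeq2, 46 without the filter, 8 without the robust prior, 9 with total count scaling, 11 with upper quartile scaling and 1 to 52 with 1 library left out. Ribosomal protein genes went from 24 to 49 with DESeq2, 49 without the filter, 5 without the robust prior, 6 with total count scaling, 8 with upper quartile scaling and 0 to 41 with 1 library left out. For snoRNA particle proteins 0 became 1 with DESeq2, 1 with RLE scaling, 1 without the filter and 0 to 3 with 1 library left out. For decay factors 1 became 2 without the filter, 0 without the robust prior, 0 with total count scaling, 0 with upper quartile scaling and 0 to 4 with 1 library left out, and for TOP regulators 1 became 1 to 2 with 1 library left out. With 1 library left out, Snhg15 ranged from -0.087 to 0.51 on the log2 scale and Snhg20 from -0.29 to 0.39, with Snhg20 at -0.15 without DMSO replicate 1. The lone library of a reduced group is assumed to vary like the other group. Snhg3 and Snhg15 were not tested under the filter of 5 CPM.

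With the replicate number as a block (the replicate block), 1387 genes, 2 listed hosts, 42 coding hosts, 45 ribosomal protein genes and 2 snoRNA particle proteins were called. The differences between replicates 1 and 2 in DMSO and in YKL correlated across genes at 0.152 over only 2 pairs, so the libraries share a number and no pairing was assumed. With 2 libraries a group, a low count such as that of Snhg3 limits what can be seen.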

Other observations

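Protein-coding genes outside the ribosomal protein class can host snoRNAs as well. A total of 196 tested genes hold a snoRNA gene in their span on the same strand, of which 4 were called lower and 5 higher, with a median log2 fold change of -0.083. The share called lower was 2.04% and the share called in either direction 4.59%, near the 1.44% and 3.54% of all genes tested, so the genes named next are single genes and not a pattern of the list. Iars, an isoleucyl-tRNA synthetase, fell from 139 and 129 CPM to 56.3 and 52.0 CPM (-1.31 ± 0.18, adjusted p = 0.0111 by edgeR). Nop53, a ribosome biogenesis factor, fell from 145 and 156 CPM to 51.8 and 67.9 CPM (-1.33 ± 0.20, adjusted p = 0.0135). Gtf2a1, a subunit of the general transcription factor TFIIA, rose from 74.0 and 63.3 CPM to 149 and 176 CPM (1.25 ± 0.19, adjusted p = 0.0153), and Nans, a sialic acid synthase, rose from 136 and 155 CPM to 283 and 304 CPM (1.01 ± 0.18, adjusted p = 0.0236). The groups of libraries did not overlap in any of these 4 genes. Snhg11, described among the noncoding hosts, is also in this list by its annotated class.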
